A study of Homo sapiens with 35 samples.

Results

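The comparison described here set 3 THP-1 libraries labelled as SUV39H1/2 double knockout (DKO) against 3 THP-1 libraries labelled sgControl. These are 6 of the 35 samples of the series. The libraries were identified by their titles, and the comparison was chosen with earlier results of these data known. THP-1 is an established human acute myeloid leukaemia line of monocytic type. The DKO cells carried guides named sgSUV39H1-3 and sgSUV39H2-1 in the column headers, and the sgControl cells carried a control guide. No library had a drug or cytokine treatment in its labels, and every THP-1 culture grew in RPMI-1640 with fetal bovine serum and beta-mercaptoethanol. The headers name clone 1 for the sgControl libraries and no clone for the DKO libraries. Nothing in the labels says that the replicates were separate cultures, so the p-values measure the spread between libraries within groups. THP-1 libraries labelled SUV39H1 single knockout (SKO, 3 samples) were in the same fit and entered its filter, scaling and estimate of spread. Their levels, and the U937 DKO and sgControl libraries (6 samples), are used only where named.

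SUV39H1 and SUV39H2 are enzymes that trimethylate histone H3 at lysine 9 (H3K9me3), the mark of constitutive heterochromatin that HP1 proteins bind. In this mark lie pericentromeric repeats, many transposable elements and silenced gene clusters. When transcripts of such elements form double-stranded RNA, the sensors RIG-I and MDA5 can signal through MAVS to type I interferon, whose receptor activates STAT2 and IRF9 and through them the interferon-stimulated genes. The series title names this immune response, and the comparison asks which genes differ in THP-1 cells when both enzymes are targeted.

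The counts were reads per gene, and levels are given as CPM, the count scaled to a common library size after trimmed mean of M-values normalization. The DKO libraries held 38678090, 31985767 and 35464774 counted reads, against 60222776, 57415031 and 51181859 in the sgControl libraries. A read was seen in 24876 to 25591 genes per DKO library and in 22808 to 24826 genes per sgControl library. Transcripts encoded in the mitochondrion took 4.36% to 4.45% of reads in the DKO libraries and 4.68% to 4.96% in the sgControl libraries, and the 50 most counted genes took 18.4% to 18.6% and 19.1% to 19.5%. The column headers of the DKO libraries hold one number, and those of the sgControl and SKO libraries another. What the number stands for is not given, and it cannot be told apart from the DKO label. The fold change also varied with the level and the length of genes. Among genes off chromosome 10, its median was 0.95 on the log2 scale in the lowest of 4 equal level classes, 0.38 and -0.11 in the middle classes and -0.22 in the highest. Among genes averaging at least 2 on the log2 CPM scale, it was -0.31 in the class with the shortest summed exons, -0.19 and -0.11 in the middle classes and 0.01 in the longest. The part of these trends in the results below was not tested, but the counts of each list called higher or lower were repeated against the trend and are given where they moved by 1.5 times or more.

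In the DKO libraries the 2 targeted genes differed from sgControl in opposite directions. SUV39H1 (chromosome X, bases 48695554 to 48709016 in hg38) had 2446, 1980 and 2200 reads in the DKO libraries, against 1952, 1961 and 1531 reads in the sgControl libraries. On the CPM scale these were 57.7, 56.7 and 56.7 CPM in the DKO libraries, against 34.8, 35.8 and 31.2 CPM in the sgControl libraries. The DKO libraries were all higher, and the log2 fold change was 0.75 ± 0.06 (SE; adjusted p = 6.8e-13). In the SKO libraries SUV39H1 had 97.1, 87.3 and 92.8 CPM, more than in either of the other groups. SUV39H2 (chromosome 10, bases 14878820 to 14904315) had 629, 500 and 524 reads in the DKO libraries, against 1706, 1626 and 1563 reads in the sgControl libraries. Its levels were 14.8, 14.3 and 13.5 CPM in the DKO libraries, against 30.4, 29.6 and 31.9 CPM in the sgControl libraries, with no overlap and a log2 fold change of -1.11 ± 0.07 (SE; adjusted p = 3.9e-14). Gene counts take in reads from the whole transcript, so these levels do not show whether the coding sequence of either gene was edited.

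The fall of SUV39H2 was close to that of its whole chromosome. Chromosome 10 genes took 1.81%, 1.84% and 1.83% of all counted reads in the DKO libraries, against 3.16%, 3.2% and 3.22% in the sgControl libraries. The share was 1.65%, 1.67% and 1.68% in the SKO libraries, and it lay between 3.13% and 3.34% in the 9 untreated U937 libraries. Of 659 tested genes on chromosome 10, 439 were lower in DKO (66.6%) and 40 were higher (6.07%) by edgeR's quasi-likelihood test at an adjusted p under 0.05. At least 2-fold changes were counted for 292 lower genes (44.3%) and 30 higher genes (4.55%). Among the 397 chromosome 10 genes averaging at least 2 log2 CPM, the median log2 fold change was -1.13 and 94.2% were below 0. The medians of the other 22 chromosomes lay between -0.29 and -0.07.

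**Figure D1:**
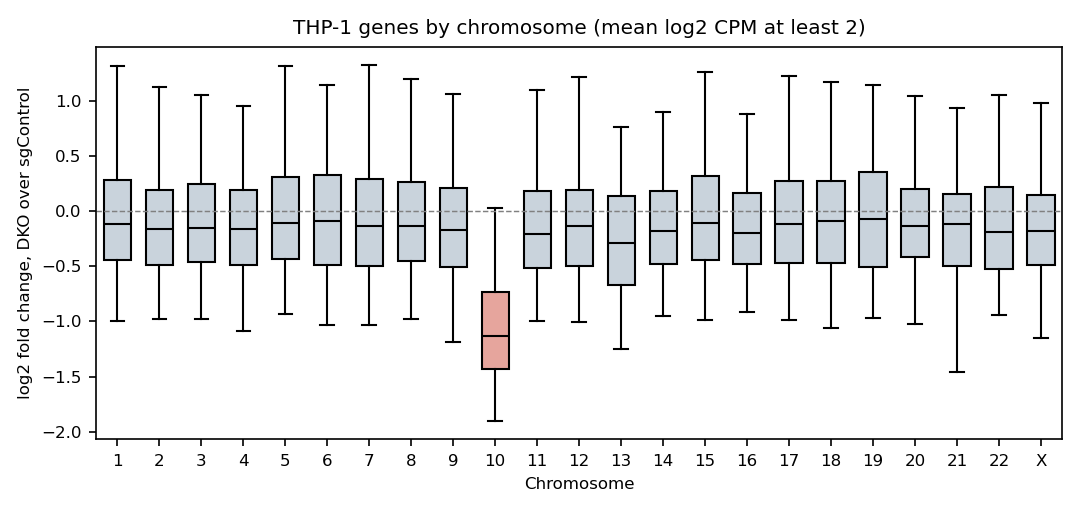
Log2 fold change of DKO over sgControl in THP-1 for genes averaging at least 2 log2 CPM, by chromosome. Boxes show the quartiles with the median as a line, and whiskers reach the 5th and 95th percentiles. The chromosome 10 box, with a median of -1.13, lies below the boxes of all other chromosomes, whose medians lie between -0.29 and -0.07.

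The lower level ran along the whole of chromosome 10. In its 7 windows of 20 Mb, which held 32 to 85 genes each, the median log2 fold change was -1.24, -0.96, -0.88, -1.09, -1.23, -1.12 and -1.13 from one end to the other. The 131 windows of that size with at least 30 genes on the other chromosomes had medians between -0.34 and 0.17. In the SKO libraries the chromosome 10 median against the same sgControl libraries was -0.98, and in U937 the DKO against sgControl median was -0.04. Between DKO and SKO libraries the chromosome 10 median was -0.14, within the range of -0.22 to -0.07 of the other chromosomes. Fewer copies of a chromosome, fewer cells that carry it and less RNA from each copy cannot be told apart in bulk counts.

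**Figure D2:**
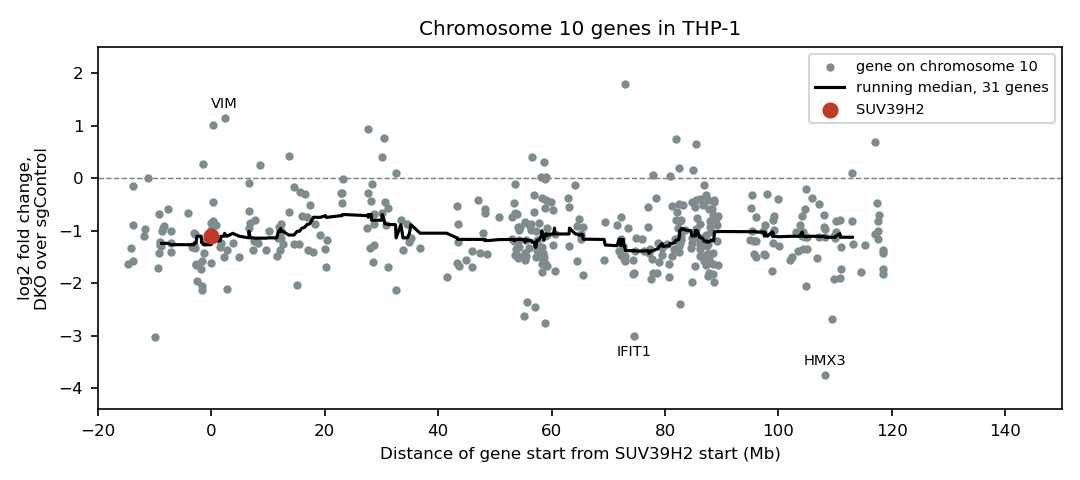
Log2 fold change of DKO over sgControl for the 397 chromosome 10 genes averaging at least 2 log2 CPM, by distance of the gene start from the start of SUV39H2 in Mb. The black line is a running median over 31 genes and the red point is SUV39H2 at -1.11. The line stays below 0 along the whole chromosome, with VIM at 1.14 above it and IFIT1 at -3.0 and HMX3 at -3.75 below it.

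Chromosome 10 genes were therefore also tested against the median of their own chromosome, which was -0.92 over all 659 tested genes. Relative to it, 183 genes were higher and 237 were lower. SUV39H2 was -0.18 ± 0.07 (SE; adjusted p = 0.03) relative to this median, which takes in genes with few reads. The 397 genes averaging at least 2 log2 CPM had a lower median of -1.13. In the first 20 Mb window, which holds SUV39H2, the median was -1.24. The fall of SUV39H2 given above was not larger than either of these. Against the SKO libraries, where chromosome 10 was at a similar level, SUV39H2 in DKO differed by -0.48 ± 0.07 (SE; adjusted p = 2.4e-06).

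Several chromosome 10 genes went against the chromosome. ST8SIA6, a sialyltransferase, had 7.69, 5.84 and 5.9 CPM in the DKO libraries, against 0.553, 0.839 and 0.754 CPM in the sgControl libraries, a log2 fold change of 3.18 ± 0.20 (SE; adjusted p = 1.7e-14). The groups did not overlap. SEC31B, a coat protein of vesicles leaving the endoplasmic reticulum, differed by 2.09 ± 0.29 (SE; adjusted p = 2.8e-07). BNIP3, a mitochondrial protein induced by hypoxia, had 88.3, 90.0 and 91.1 CPM in the DKO libraries, against 55.7, 56.7 and 55.1 CPM in the sgControl libraries, and the SKO libraries had 26.7, 25.9 and 30.9 CPM. VIM, the intermediate filament vimentin, was higher by 1.14 ± 0.07 (SE; adjusted p = 4.7e-15), and reads in its overlap with an antisense gene were left out of its count.

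The chromosome 10 genes that were lowest in DKO included HMX3, a homeobox gene, with 0.519, 0.687 and 1.03 CPM in the DKO libraries, against 11.4, 8.84 and 9.89 CPM in the sgControl libraries and a log2 fold change of -3.75 ± 0.22 (SE; adjusted p = 1.8e-15). AKR1C2, an aldo-keto reductase with close paralogs, had 1.68, 1.49 and 1.5 CPM in the DKO libraries, against 14.8, 11.4 and 11.9 CPM in the sgControl libraries, a log2 fold change of -3.03 ± 0.19 (SE; adjusted p = 1.3e-14). ANK3, which encodes ankyrin-G, differed by -3.03 ± 0.28 (SE; adjusted p = 9.5e-11), ARHGAP22, a GTPase-activating protein, by -2.93 ± 0.25 (SE; adjusted p = 2e-11) and MYOZ1 by -2.75 ± 0.15 (SE; adjusted p = 2.9e-16). All 4 proliferation genes tested on the chromosome were lower, where 66.6% of all its tested genes were called lower. MCM10, a replication initiation factor, differed by -2.12 ± 0.06 (SE; adjusted p = 2.3e-23), KIF11 by -1.55, CDK1 by -1.39 and MKI67 by -1.25. Relative to the chromosome 10 median over all tested genes MCM10 was still -1.2 ± 0.06 (SE; adjusted p = 1.8e-17), and MKI67 was -0.32 ± 0.04 (SE; adjusted p = 1.2e-07). MKI67 lay nearer to the median of chromosome 10 genes averaging at least 2 log2 CPM, which was -1.13.

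Off chromosome 10, 17926 genes were tested. Of these 5896 were higher in DKO (32.9%) and 5815 were lower (32.4%), with a median log2 fold change of 0.07. Changes of at least 2-fold were more often upward, with 3114 higher genes (17.4%) and 999 lower genes (5.57%). The DKO and sgControl libraries did not overlap in 12657 genes (70.6%), so a lack of overlap in a single gene is the usual case here. Against the trend with level and length, 4947 genes were higher and 5717 were lower. All gene lists below leave out chromosome 10 unless it is named, and their counts are read against these shares.

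The interferon-stimulated genes were mostly lower in DKO than in sgControl cells. Of 69 tested members, 50 were lower (72.5%, against 32.4% of all genes), 8 were higher and 11 did not pass the test. The median log2 fold change of the list was -0.77, against 0.07 over all genes, with members between -3.45 and 3.45. At least 2-fold decreases were counted for 27 members, and increases of that size for 2. Against the trend with level and length, 47 were lower and 10 were higher.

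ISG15, a ubiquitin-like modifier and one of the most interferon-responsive genes, had 4.65, 5.04 and 5.16 CPM in the DKO libraries, against 47.9, 37.7 and 38 CPM in the sgControl libraries. Every DKO library was lower, and the log2 fold change was -3.06 ± 0.10 (SE; adjusted p = 2.8e-21). IFI6, a small mitochondrial protein, had 23.5, 22.8 and 21.3 CPM in the DKO libraries, against 176, 146 and 148 CPM in the sgControl libraries, again with no overlap, and a log2 fold change of -2.8 ± 0.07 (SE; adjusted p = 8.2e-25). The oligoadenylate synthetases OAS1, OAS2 and OAS3, which are activated by double-stranded RNA, were lower. OAS2 had 20.7, 21.6 and 25.3 CPM in the DKO libraries, against 122, 122 and 124 CPM in the sgControl libraries, a log2 fold change of -2.44 ± 0.07 (SE; adjusted p = 2.2e-23). OAS3 had 20.1, 17.9 and 19.6 CPM in the DKO libraries, against 114, 112 and 115 CPM in the sgControl libraries, a log2 fold change of -2.56 ± 0.06 (SE; adjusted p = 5.5e-25). OAS1 differed less, by -1.03 ± 0.09 (SE; adjusted p = 7.3e-12).

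The antiviral GTPase MX1 averaged 10.7 ± 0.859 CPM in the DKO libraries and 57.5 ± 3.33 CPM in the sgControl libraries (SD, n = 3 each). Its relative MX2 averaged 10.4 ± 1.2 CPM in the DKO libraries and 72.5 ± 1.44 CPM in the sgControl libraries (SD, n = 3 each). The groups did not overlap for either, and the log2 fold changes were -2.43 (adjusted p = 1.3e-20) for MX1 and -2.8 (adjusted p = 1.2e-23) for MX2. IFITM3, which blocks the entry of enveloped viruses, had 19.8, 19.8 and 18.2 CPM in the DKO libraries, against 122, 116 and 122 CPM in the sgControl libraries, a log2 fold change of -2.64 ± 0.06 (SE; adjusted p = 1.8e-25). LGALS3BP, a secreted glycoprotein, had the lowest fold change of the list, with 3.14, 2.69 and 2.78 CPM in the DKO libraries, against 34.6, 29.2 and 30.5 CPM in the sgControl libraries and -3.45 ± 0.11 (SE; adjusted p = 7.7e-22). IFI27 had 0.755, 0.229 and 0.309 CPM in the DKO libraries, against 4.03, 3.43 and 3.71 CPM in the sgControl libraries, and SIGLEC1, a sialic acid receptor of macrophages, had 8.7, 6.16 and 6.37 CPM in the DKO libraries, against 33.5, 32.9 and 33.8 CPM in the sgControl libraries. BST2 (tetherin) averaged 95.3 ± 1.41 CPM in the DKO libraries and 251 ± 17.9 CPM in the sgControl libraries, and EIF2AK2, the kinase PKR that senses double-stranded RNA, averaged 55.8 ± 2.92 CPM in the DKO libraries and 130.0 ± 9.98 CPM in the sgControl libraries (SD, n = 3 each). Their log2 fold changes were -1.4 (adjusted p = 2.8e-21) and -1.22 (adjusted p = 6.5e-18).

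A few members went the other way. GBP2, a guanylate-binding protein strongly induced by interferon gamma, had 16.2, 16.4 and 16.4 CPM in the DKO libraries, against 1.62, 1.2 and 1.67 CPM in the sgControl libraries. It was higher in every DKO library, by 3.45 ± 0.14 (SE; adjusted p = 4.1e-19) on the log2 scale. HELZ2, a nuclear receptor coactivator, was higher by 0.49 ± 0.06 (SE; adjusted p = 5.3e-08). CXCL10, a chemokine induced by interferon, had 0.236, 0.286 and 0.258 CPM in the DKO libraries and 0.25, 0.365 and 0.571 CPM in the sgControl libraries, which overlapped, and XAF1 had 13.7, 14 and 11.8 CPM in the DKO libraries and 10.7, 12 and 13.5 CPM in the sgControl libraries, which overlapped too.

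**Figure D3:**
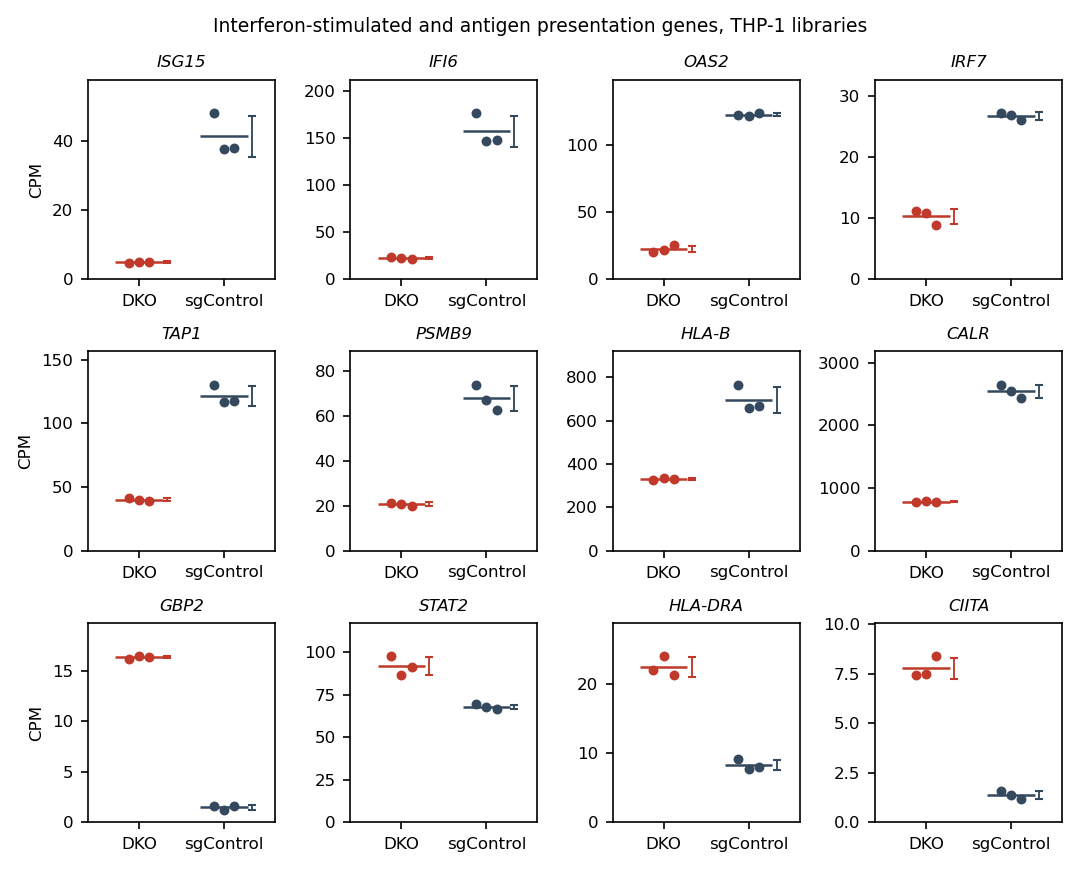
CPM of 12 interferon-stimulated and antigen presentation genes in each DKO (left, red) and sgControl (right, dark) library, with the group mean as a line and the SD as a bar (n = 3 each). ISG15, IFI6, OAS2, IRF7, TAP1, PSMB9, HLA-B and CALR were lower in every DKO library, and GBP2, STAT2, HLA-DRA and CIITA were higher.

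The promoters of 3 of these genes and of TAP1, described below, are shown because they hold the core of the interferon-stimulated response element (ISRE), which the interferon-activated complex with STAT2 and IRF9 binds. The windows are RefSeq's (GRCh38.p14), from 250 bases before to 50 after the gene start, written 5′ to 3′ on the strand of the gene. Capitals mark each match to the core GAAANNGAAA on either strand, overlapping matches included.
ISG15 (chr1:1013247-1013546, plus strand): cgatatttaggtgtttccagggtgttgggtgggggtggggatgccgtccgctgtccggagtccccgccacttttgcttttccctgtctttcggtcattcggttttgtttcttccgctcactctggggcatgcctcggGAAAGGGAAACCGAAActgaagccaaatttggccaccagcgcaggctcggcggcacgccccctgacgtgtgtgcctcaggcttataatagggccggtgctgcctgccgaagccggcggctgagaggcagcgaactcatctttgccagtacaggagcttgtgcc
IFI6 (chr1:27672143-27672442, minus strand): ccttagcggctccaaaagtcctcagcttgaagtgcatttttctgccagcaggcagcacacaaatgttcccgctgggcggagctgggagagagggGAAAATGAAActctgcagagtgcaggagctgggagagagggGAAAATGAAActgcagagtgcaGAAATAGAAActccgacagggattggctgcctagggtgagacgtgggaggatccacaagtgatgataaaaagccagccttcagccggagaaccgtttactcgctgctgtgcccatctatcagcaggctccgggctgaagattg
OAS3 (chr12:112938224-112938523, plus strand): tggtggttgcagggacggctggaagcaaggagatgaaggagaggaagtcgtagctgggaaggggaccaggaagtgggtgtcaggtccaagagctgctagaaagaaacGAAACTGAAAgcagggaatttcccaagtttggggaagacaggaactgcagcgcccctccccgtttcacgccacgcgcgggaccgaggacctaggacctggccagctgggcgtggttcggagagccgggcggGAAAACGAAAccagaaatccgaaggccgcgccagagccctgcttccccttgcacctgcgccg
TAP1 (chr6:32853655-32853954, minus strand): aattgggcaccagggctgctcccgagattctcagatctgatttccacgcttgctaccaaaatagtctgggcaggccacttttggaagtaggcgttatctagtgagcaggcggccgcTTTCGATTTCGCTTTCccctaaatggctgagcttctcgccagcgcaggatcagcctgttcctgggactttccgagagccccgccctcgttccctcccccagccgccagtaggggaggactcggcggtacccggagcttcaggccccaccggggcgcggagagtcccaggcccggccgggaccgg
ISG15 had 2 such matches, IFI6 had 3, OAS3 had 2 and TAP1 had 2. Windows were found for 53 of the 69 members. The core was found in 35 of these 53 windows (66%), against 996 of all 27305 RefSeq windows (3.65%). By call it was found in 29 of 40 windows of members lower in DKO, 2 of 5 of members higher and 4 of 8 of members that did not pass the test, and a match is a description of the letters, not a bound site.

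The 4 interferon-stimulated members on chromosome 10, which belong to 1 gene cluster of RNA-binding antiviral proteins, were lower than their chromosome. IFIT1 had 3.11, 1.6 and 2.09 CPM in the DKO libraries, against 17.9, 19.4 and 17.7 CPM in the sgControl libraries, a log2 fold change of -3.0 ± 0.19 (SE; adjusted p = 1.4e-14). Relative to the chromosome 10 median, IFIT1 was -2.07 ± 0.19 (SE; adjusted p = 5.7e-11) and IFIT5 was -1.48 ± 0.22 (SE; adjusted p = 8.9e-07). IFIT2 and IFIT3 were -0.89 ± 0.11 (SE; adjusted p = 2.2e-08) and -0.88 ± 0.15 (SE; adjusted p = 1.1e-05) relative to it. Each of the 4 was lower in every DKO library than in every sgControl library.

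Within the signalling chain of the interferon receptor members were called in both directions, as were genes off chromosome 10 in general. Of 18 tested JAK, STAT and IRF genes, 8 were higher in DKO (44.4%, against 32.9% of all genes). Another 5 were lower (27.8%, against 32.4%), and the median was 0.10. Against the trend with level and length 12 were higher and 5 were lower. STAT2, a transcription factor of the type I complex, was higher, with 97.6, 86.6 and 91.4 CPM in the DKO libraries, against 69.3, 67.8 and 66.7 CPM in the sgControl libraries and 0.44 ± 0.05 (SE; adjusted p = 1.3e-08). IRF9, which completes that complex, had 2.08, 1.69 and 1.44 CPM in the DKO libraries, against 0.392, 0.529 and 0.775 CPM in the sgControl libraries, a log2 fold change of 1.62 ± 0.39 (SE; adjusted p = 0.00053). The IRF9 values rest on few reads, 88, 59 and 56 in the DKO libraries and 22, 29 and 38 in the sgControl libraries. Reads that overlapped several genes were left out of the counts. IRF7, which amplifies interferon alpha transcription, had 11.2, 10.8 and 8.97 CPM in the DKO libraries, against 27.2, 27 and 26.1 CPM in the sgControl libraries, and USP18, which removes ISG15 and dampens the receptor, had 3.16, 2.46 and 2.53 CPM in the DKO libraries, against 12.2, 11.4 and 12.3 CPM in the sgControl libraries. Both were lower, at -1.37 (adjusted p = 2e-13) and -2.13 (adjusted p = 3.5e-14) on the log2 scale.

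Interferon genes themselves were hardly counted: 5 of the 15 listed ligand and receptor genes passed the filter on low counts, and the 4 of them that passed the test were receptor subunits, 3 higher and 1 lower, or 2 higher and 1 lower against the trend with level and length. The interferon gamma receptor chains IFNGR1 and IFNGR2 were slightly higher, by 0.22 (adjusted p = 0.00012) and 0.29 (adjusted p = 8.1e-05), and IL10RB, a chain of the type III receptor, was higher by 1.33 (adjusted p = 0.00067). IFNAR1, a chain of the type I receptor, was -0.16 (adjusted p = 0.0031), and against the trend with level and length it was -0.01 (adjusted p = 0.87). Of 22 genes that sense foreign or self nucleic acids, 7 were higher (31.8%, against 32.9% of all genes). Another 9 were lower (40.9%, against 32.4%), and the median was -0.18. The endosomal RNA receptors TLR8 and TLR7 were higher, TLR8 with 4.32, 4.47 and 4.0 CPM in the DKO libraries, against 0.214, 0.219 and 0.449 CPM in the sgControl libraries and 3.87 ± 0.30 (SE; adjusted p = 1.3e-12), and TLR7 with a log2 fold change of 2.12 ± 0.38 (SE; adjusted p = 1.4e-05). IFIH1, which encodes the RNA sensor MDA5, was lower, with 24.3, 25.1 and 24.8 CPM in the DKO libraries, against 41.2, 42.8 and 47.3 CPM in the sgControl libraries and -0.82 ± 0.06 (SE; adjusted p = 2.4e-12). DDX58, which encodes the sensor RIG-I, was higher by 1.07 ± 0.43 (SE; adjusted p = 0.029) on few reads. It averaged 1.05 CPM in the DKO libraries and 0.5 CPM in the sgControl libraries.

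Genes of the MHC class I pathway, which loads peptides for cytotoxic T cells, were lower as a group. Of 22 tested members, 18 were lower (82%, against 32.4% of all genes), none was higher and 4 did not pass the test, and the median was -0.93. 1 member was called higher when the fit used only the 6 libraries, when a replicate block was added, against the trend with level and length or without sgControl replicate 3. B2M, the light chain of every class I molecule, had 635, 659.8 and 661 CPM in the DKO libraries, against 1325, 1351 and 1304 CPM in the sgControl libraries, a log2 fold change of -1.02 ± 0.04 (SE; adjusted p = 3.1e-20). HLA-B averaged 330.1 ± 4.14 CPM in the DKO libraries and 697 ± 59.5 CPM in the sgControl libraries and HLA-C 127 ± 1.61 CPM in the DKO libraries and 320.4 ± 27.9 CPM in the sgControl libraries (SD, n = 3 each). The log2 fold changes were -1.08 and -1.34, and reads shared between these near-identical genes make single values uncertain. HLA-F had 0.283, 0.831 and 0.361 CPM in the DKO libraries, against 16, 14 and 12.9 CPM in the sgControl libraries, the lowest fold change of the list at -4.9 ± 0.21 (SE; adjusted p = 2.7e-18). HLA-E had 144, 141 and 147 CPM in the DKO libraries and 150.3, 139 and 144 CPM in the sgControl libraries, which overlapped.

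TAP1, a subunit of the peptide transporter, had 41.8, 40.0 and 39.2 CPM in the DKO libraries, against 130.3, 117 and 118 CPM in the sgControl libraries, a log2 fold change of -1.59 ± 0.05 (SE; adjusted p = 2.6e-21). PSMB9, a subunit of the immunoproteasome, had 21.6, 21 and 20.2 CPM in the DKO libraries, against 74.1, 67.1 and 63 CPM in the sgControl libraries, a log2 fold change of -1.7 ± 0.06 (SE; adjusted p = 9.4e-20). The chaperone CALR, which also folds other glycoproteins, had 775, 791 and 776 CPM in the DKO libraries, against 2647, 2544 and 2435 CPM in the sgControl libraries, a log2 fold change of -1.7 ± 0.04 (SE; adjusted p = 1.7e-25). NLRC5, the transactivator of class I genes, differed by -0.28 ± 0.06 (SE; adjusted p = 0.00025).

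Class II genes, which present peptides to helper T cells, were more often higher. Of 12 tested members 6 were higher (50%, against 32.9% of all genes) and 3 were lower (25%, against 32.4%). The other 3 did not pass the test, and the median was 0.75. The median level of the list, 2.95 log2 CPM, lies in a low level class, where all genes off chromosome 10 had a median of 0.38. Against the trend with level and length 6 were higher and 2 were lower. CIITA, their master transactivator, had 7.45, 7.47 and 8.38 CPM in the DKO libraries, against 1.6, 1.37 and 1.16 CPM in the sgControl libraries, a log2 fold change of 2.49 ± 0.21 (SE; adjusted p = 1.8e-11). HLA-DRA had 22.1, 24.1 and 21.3 CPM in the DKO libraries, against 9.16, 7.77 and 8.07 CPM in the sgControl libraries, a log2 fold change of 1.43 ± 0.09 (SE; adjusted p = 3e-14). HLA-DPA1 was higher by 1.69 ± 0.19 (SE; adjusted p = 4.6e-09) and CD74, the invariant chain, by 0.95 ± 0.04 (SE; adjusted p = 1.9e-18). HLA-DRB1 was lower, at -0.22 ± 0.05 (SE; adjusted p = 0.00035).

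Among 24 ligands and receptors seen by T and NK cells, 9 were higher (37.5%, against 32.9% of all genes). Another 13 were lower (54.2%, against 32.4%), and the median was -0.30. CD86, which costimulates T cells, had 3.89, 4.04 and 3.74 CPM in the DKO libraries, against 0.749, 0.474 and 0.836 CPM in the sgControl libraries, a log2 fold change of 2.5 ± 0.26 (SE; adjusted p = 9.1e-10). The NKG2D ligands ULBP1 and MICA were higher by 1.88 ± 0.23 (SE; adjusted p = 2.7e-08) and 1.01 ± 0.14 (SE; adjusted p = 1.3e-07). CD274, which encodes PD-L1, had 0.66, 0.487 and 0.593 CPM in the DKO libraries, against 1.43, 2.37 and 2.81 CPM in the sgControl libraries, a log2 fold change of -1.91 ± 0.36 (SE; adjusted p = 2.5e-05). On chromosome 10, VSIR, which encodes the checkpoint protein VISTA, was -0.32, but 0.60 ± 0.04 (SE; adjusted p = 4e-13) relative to its chromosome.

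Inflammatory cytokine and NF-kB target genes were more often higher. Of 32 tested members, 17 were higher (53%, against 32.9% of all genes) and 8 were lower, with a median of 0.52, and 14 were higher by at least 2-fold. TNF (chromosome 6, bases 31575565 to 31578336), the main inflammatory cytokine of monocytes, had 98.8, 101 and 99.6 CPM in the DKO libraries, against 1.48, 1.5 and 0.979 CPM in the sgControl libraries. The DKO libraries were 74.9-fold higher on average, with a log2 fold change of 6.23 ± 0.10 (SE; adjusted p = 2e-28). The SKO libraries had 3.4, 4.63 and 4.35 CPM, and DKO exceeded SKO by 4.59 ± 0.09 (SE; adjusted p = 2.8e-26) on the log2 scale. CXCL8, the neutrophil chemokine IL-8, had 18.8, 18.4 and 21.3 CPM in the DKO libraries, against 2.28, 2.26 and 2.16 CPM in the sgControl libraries, a log2 fold change of 3.12 ± 0.12 (SE; adjusted p = 1.8e-19). CCL2, the monocyte chemokine, had 10.8, 7.5 and 8.81 CPM in the DKO libraries, against 0.428, 0.693 and 0.856 CPM in the sgControl libraries, a log2 fold change of 3.79 ± 0.22 (SE; adjusted p = 3.5e-15).

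The chemokines CCL3 and CCL4 had 2.45, 2.35 and 2.53 CPM and 1.79, 1.15 and 1.21 CPM in the DKO libraries and stayed under 1 CPM in the sgControl libraries, and near-identical copies of both genes make these values uncertain. CXCL2 was at 0 in all sgControl libraries and had 0.472, 0.172 and 0.464 CPM in the DKO libraries. TNFAIP3, the deubiquitinase A20 that limits NF-kB, had 56.4, 52.1 and 57 CPM in the DKO libraries, against 18.7, 18 and 16.7 CPM in the sgControl libraries, a log2 fold change of 1.63 ± 0.06 (SE; adjusted p = 1.2e-19). The NF-kB subunits were lower, NFKB1 at -0.49 (adjusted p = 3.8e-10) and RELA at -0.39 (adjusted p = 1.4e-07). NFKBIA, the inhibitor of NF-kB, had 51.3, 48.3 and 50.9 CPM in the DKO libraries and 51.2, 47 and 50.5 CPM in the sgControl libraries, which overlapped.

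Immediate early genes, which cells switch on within minutes of a stimulus, were also more often higher. Of 30 tested members 18 were higher (60%, against 32.9% of all genes) and 6 were lower (20%, against 32.4%), with a median of 0.51. FOS had 131, 135 and 129 CPM in the DKO libraries, against 39.4, 41.2 and 40.0 CPM in the sgControl libraries, a log2 fold change of 1.71 ± 0.05 (SE; adjusted p = 5.3e-23). NR4A1, an orphan nuclear receptor, had 4.91, 5.5 and 4.77 CPM in the DKO libraries, against 0.357, 0.492 and 1.18 CPM in the sgControl libraries, a log2 fold change of 2.92 ± 0.31 (SE; adjusted p = 1.1e-09). EGR1 had 209.8, 216 and 202 CPM in the DKO libraries, against 106, 124 and 126 CPM in the sgControl libraries, a log2 fold change of 0.82 ± 0.05 (SE; adjusted p = 1.7e-14). JUN was higher by 1.12 ± 0.08 (SE; adjusted p = 3.5e-13) and ZFP36L1, which destabilises AU-rich mRNAs, by 2.42 ± 0.12 (SE; adjusted p = 7.5e-17). DUSP1 had 1.04, 1.29 and 1.34 CPM in the DKO libraries and 1.14, 0.766 and 1.45 CPM in the sgControl libraries, which overlapped.

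Markers of monocytes and macrophages were mostly higher in DKO. Of 50 tested members 32 were higher (64%, against 32.9% of all genes) and 10 were lower, with a median of 0.66, and 18 were higher by at least 2-fold against 7 lower. S100A9, a subunit of calprotectin, had 106, 111 and 108 CPM in the DKO libraries, against 4.81, 4.3 and 4.36 CPM in the sgControl libraries, a log2 fold change of 4.59 ± 0.07 (SE; adjusted p = 2.7e-29). Its partner S100A8 had 19.6, 19.5 and 19.1 CPM in the DKO libraries, against 1.82, 1.06 and 0.897 CPM in the sgControl libraries, a log2 fold change of 3.93 ± 0.16 (SE; adjusted p = 3.3e-19). S100A12 had 50, 34 and 58 reads in the DKO libraries, against 2, 0 and 0 reads in the sgControl libraries. LYZ, which encodes lysozyme, had 502, 486 and 497 CPM in the DKO libraries, against 91.1, 87.4 and 87.6 CPM in the sgControl libraries, a log2 fold change of 2.48 ± 0.04 (SE; adjusted p = 1.2e-28).

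Surface receptors of the list were split. FCGR2B, the inhibitory Fc receptor, had 6.3, 5.33 and 6.08 CPM in the DKO libraries, against 0.0713, 0 and 0.0612 CPM in the sgControl libraries, and FCGR2C had 7.86, 5.81 and 7.37 CPM in the DKO libraries, against 0.0357, 0.0182 and 0.163 CPM in the sgControl libraries. These 2 genes are nearly identical, so how reads were divided between them is uncertain. FCGR2A averaged 102 ± 1.5 CPM in the DKO libraries and 70.1 ± 1.86 CPM in the sgControl libraries (SD, n = 3 each), a log2 fold change of 0.54 (adjusted p = 1.1e-11). CSF1R, the receptor for the growth factor M-CSF, had 287, 279 and 275 CPM in the DKO libraries, against 196, 183 and 179 CPM in the sgControl libraries, a log2 fold change of 0.59 ± 0.04 (SE; adjusted p = 1.8e-13). TLR4, the lipopolysaccharide receptor, had 43.3, 44 and 42.9 CPM in the DKO libraries, against 19.5, 19.5 and 20.4 CPM in the sgControl libraries, a log2 fold change of 1.13 ± 0.06 (SE; adjusted p = 3.4e-16). CD36, a scavenger receptor, was lower, with 13.8, 14.1 and 14.1 CPM in the DKO libraries, against 50.2, 47.6 and 47.8 CPM in the sgControl libraries and -1.79 ± 0.07 (SE; adjusted p = 1.6e-19), and CD4 was lower at -0.81 ± 0.04 (SE; adjusted p = 1.5e-16). CD14 was higher by 0.93 ± 0.15 (SE; adjusted p = 2.3e-06).

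**Figure D4:**
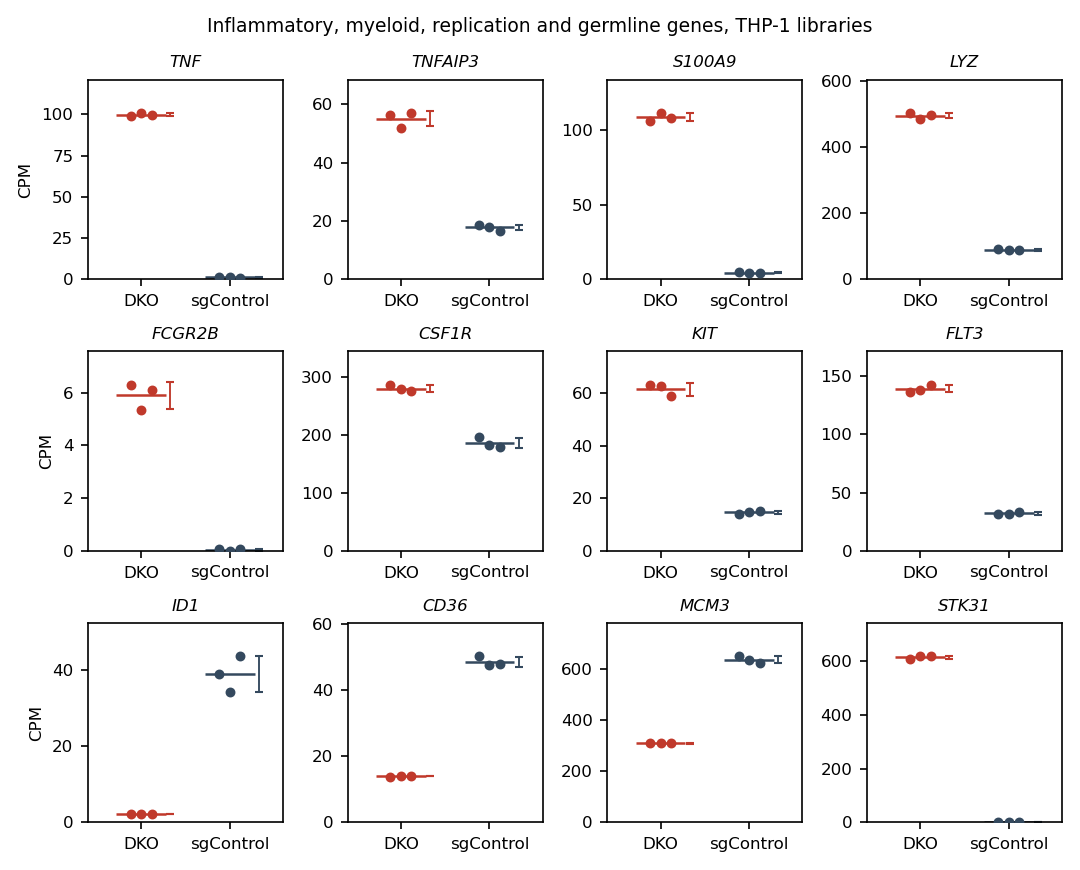
CPM of 12 inflammatory, myeloid, replication and germline genes in each DKO (left, red) and sgControl (right, dark) library, with the group mean as a line and the SD as a bar (n = 3 each). TNF, TNFAIP3, S100A9, LYZ, FCGR2B, CSF1R, KIT, FLT3 and STK31 were higher in every DKO library, and ID1, CD36 and MCM3 were lower.

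Granule and progenitor genes gave no common direction. Of 15 tested granulocyte and granule genes 7 were higher (46.7%, against 32.9% of all genes) and 4 were lower (26.7%, against 32.4%). Their median was 0.22, and against the trend with level and length 2 were lower. CEACAM6, an adhesion molecule of granulocytes, had 37.2, 38.9 and 39.6 CPM in the DKO libraries, against 7.53, 7.35 and 8.01 CPM in the sgControl libraries, a log2 fold change of 2.34 ± 0.08 (SE; adjusted p = 2e-21), while PRTN3, the serine protease proteinase 3, had 997, 920.0 and 933 CPM in the DKO libraries, against 2384, 2159 and 2107 CPM in the sgControl libraries, a log2 fold change of -1.22 ± 0.04 (SE; adjusted p = 2e-20). Of 26 tested progenitor and HOXA genes 10 were higher (38.5%, against 32.9% of all genes) and 7 were lower (26.9%, against 32.4%). Their median was 0.21, and against the trend with level and length 3 were lower. KIT, the stem cell factor receptor, had 63.3, 62.9 and 58.8 CPM in the DKO libraries, against 14.2, 14.8 and 15.1 CPM in the sgControl libraries, a log2 fold change of 2.07 ± 0.06 (SE; adjusted p = 6.8e-23). FLT3, a receptor tyrosine kinase of progenitors, had 137, 138 and 143 CPM in the DKO libraries, against 31.4, 31.7 and 33.4 CPM in the sgControl libraries, a log2 fold change of 2.11 ± 0.05 (SE; adjusted p = 1.4e-25). In the SKO libraries KIT had 58, 58.6 and 60.9 CPM and FLT3 had 202, 193 and 196 CPM, values closer to those of DKO than of sgControl. CD34 varied between the DKO libraries, with 14, 40 and 124 reads in the DKO libraries, against 0, 0 and 2 reads in the sgControl libraries. HOXA9 was higher by 0.34 ± 0.06 (SE; adjusted p = 1.7e-05), and MEIS1 had under 1 CPM in every DKO and sgControl library.

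Of 21 myeloid transcription factors 11 were higher (52.4%, against 32.9% of all genes) and 6 were lower (28.6%, against 32.4%). Their median was 0.37. ID1, an inhibitor of helix-loop-helix factors, had 2.22, 2.21 and 2.17 CPM in the DKO libraries, against 38.9, 34.4 and 43.7 CPM in the sgControl libraries, a log2 fold change of -4.15 ± 0.11 (SE; adjusted p = 3.7e-23). NFE2, a factor of erythroid and megakaryocytic cells, had 62.2, 63 and 63.5 CPM in the DKO libraries, against 11.7, 10.9 and 11.2 CPM in the sgControl libraries, a log2 fold change of 2.48 ± 0.06 (SE; adjusted p = 8.6e-24). The lineage factors SPI1 (PU.1), CEBPA and IRF8 were lower, at -0.35 (adjusted p = 4.2e-08), -0.43 (adjusted p = 4.6e-10) and -0.33 (adjusted p = 1.3e-09). GFI1 averaged 298 ± 1.98 CPM in the DKO libraries and 289.6 ± 1.34 CPM in the sgControl libraries (SD, n = 3 each), a difference that did not pass the test (adjusted p = 0.29).

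Proliferation genes were lower almost throughout. Of 42 tested members 37 were lower (88%, against 32.4% of all genes) and 4 were higher, with a median of -0.59. Without DKO replicate 2, 2 were higher. Most decreases were small, and 3 members were lower by at least 2-fold. TK1, which salvages thymidine for DNA synthesis, had 79.4, 77 and 82.7 CPM in the DKO libraries, against 228, 198 and 191 CPM in the sgControl libraries, a log2 fold change of -1.37 ± 0.05 (SE; adjusted p = 1.7e-19). MCM3, a subunit of the replicative helicase, had 308, 308 and 311 CPM in the DKO libraries, against 649, 635 and 622 CPM in the sgControl libraries, a log2 fold change of -1.04 ± 0.04 (SE; adjusted p = 8.2e-21). CDC6, which loads that helicase, had 46.8, 49.8 and 45.3 CPM in the DKO libraries, against 101, 101 and 100.4 CPM in the sgControl libraries, a log2 fold change of -1.09 ± 0.05 (SE; adjusted p = 4.9e-18). PCNA was lower at -0.72 ± 0.04 (SE; adjusted p = 8.2e-15) and CCNB1, the mitotic cyclin, at -0.39 ± 0.04 (SE; adjusted p = 7.9e-10). CCND2, a cyclin of the G1 phase, was higher, with 2.22, 2.23 and 1.86 CPM in the DKO libraries, against 0.107, 0.583 and 0.632 CPM in the sgControl libraries and 2.26 ± 0.38 (SE; adjusted p = 5.5e-06).

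Of 31 tested DNA damage response and apoptosis genes 13 were higher (41.9%, against 32.9% of all genes). Another 13 were lower (41.9%, against 32.4%), and the median was 0.14. CDKN1A, the cell cycle inhibitor p21, had 39.4, 42.6 and 43 CPM in the DKO libraries, against 136, 123 and 119 CPM in the sgControl libraries, a log2 fold change of -1.59 ± 0.06 (SE; adjusted p = 1.6e-20). MDM4 was higher by 1.38 ± 0.07 (SE; adjusted p = 1.6e-16) and the death receptor TNFRSF10B by 1.32 ± 0.08 (SE; adjusted p = 4.6e-15).

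Genes of cellular stress, a list that holds chaperones of the endoplasmic reticulum, heat shock genes and targets of the integrated and oxidative stress responses, were mostly lower. Of 38 tested stress and unfolded protein response genes 29 were lower (76.3%, against 32.4% of all genes) and 5 were higher, with a median of -0.68, and 13 were lower by at least 2-fold. HSPA5, the main chaperone BiP, had 499, 499 and 509 CPM in the DKO libraries, against 1625, 1507 and 1497 CPM in the sgControl libraries, a log2 fold change of -1.62 ± 0.04 (SE; adjusted p = 9.7e-25). SDF2L1, a cofactor of that chaperone, had 14.3, 11.2 and 12.9 CPM in the DKO libraries, against 74.2, 56 and 69.8 CPM in the sgControl libraries, a log2 fold change of -2.37 ± 0.09 (SE; adjusted p = 3.7e-20). MANF, a secreted stress protein, had 27.8, 27.4 and 27.1 CPM in the DKO libraries, against 119, 111 and 113 CPM in the sgControl libraries, a log2 fold change of -2.06 ± 0.05 (SE; adjusted p = 2.8e-24). HSP90B1 was lower at -0.42 ± 0.03 (SE; adjusted p = 3.9e-12), PDIA4 at -1.4 ± 0.04 (SE; adjusted p = 2.6e-22) and the transcription factor XBP1 at -0.69 ± 0.04 (SE; adjusted p = 8.6e-15). In contrast ATF4, a factor of the integrated stress response, was higher by 0.57 ± 0.04 (SE; adjusted p = 1.5e-13). Its target DDIT3 had 9.55, 8.73 and 10.0 CPM in the DKO libraries and 9.06, 10.5 and 8.24 CPM in the sgControl libraries, and TRIB3 had 39, 38.1 and 37.1 CPM in the DKO libraries and 43.1, 37.1 and 34 CPM in the sgControl libraries, and both overlapped. VEGFA, an angiogenic factor, was higher, with 53.4, 45.6 and 46.4 CPM in the DKO libraries, against 9.45, 8.39 and 8.64 CPM in the sgControl libraries and 2.46 ± 0.09 (SE; adjusted p = 1.6e-20).

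Nuclear genes of oxidative phosphorylation were lower by a small amount. Of 73 tested members 66 were lower (90.4%, against 32.4% of all genes) and 1 was higher, with a median of -0.52, and 3 were lower by at least 2-fold. NDUFS5, a subunit of complex I, had 59.4, 58.4 and 55 CPM in the DKO libraries, against 136, 120.3 and 124 CPM in the sgControl libraries, a log2 fold change of -1.14 ± 0.05 (SE; adjusted p = 1.7e-18). UQCRQ, of complex III, was lower at -1.12 ± 0.08 (SE; adjusted p = 2.8e-13) and COX8A, of complex IV, at -1.01 ± 0.07 (SE; adjusted p = 2.8e-14). These genes are short, with a median summed exon length of 2615 bases. Against the trend with level and length 54 were lower and 4 were higher. Of the 13 genes encoded in the mitochondrion 9 were lower and 3 were higher, with a median of -0.33, and against the trend 4 were lower and 5 were higher. Of 80 ribosomal protein genes 36 were higher and 22 were lower, with a median of 0.05, and against the trend 58 were higher and 8 were lower.

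Genes of sterol and fatty acid synthesis were more often higher. Of 30 tested members 20 were higher (66.7%, against 32.9% of all genes) and 7 were lower (23.3%, against 32.4%), with a median of 0.52. FDFT1, which makes squalene, had 437, 431 and 436 CPM in the DKO libraries, against 258, 245 and 238 CPM in the sgControl libraries, a log2 fold change of 0.82 ± 0.04 (SE; adjusted p = 2.5e-17). MSMO1, a later enzyme of sterol synthesis, had 67, 68.3 and 69.6 CPM in the DKO libraries, against 33.8, 35.7 and 32.1 CPM in the sgControl libraries, a log2 fold change of 1.01 ± 0.05 (SE; adjusted p = 2.7e-16). The groups did not overlap for either. Of 17 lipid efflux genes 8 were higher (47.1%, against 32.9% of all genes) and 6 were lower (35.3%, against 32.4%). Their median was 0.42, and against the trend with level and length 7 were higher and 4 were lower. ABCA1, which exports cholesterol, had 65.2, 63.5 and 63.3 CPM in the DKO libraries, against 16.6, 14.8 and 17.5 CPM in the sgControl libraries, a log2 fold change of 1.98 ± 0.07 (SE; adjusted p = 5e-21). APOE, a lipid carrier, had 4.5, 4.7 and 4.33 CPM in the DKO libraries, against 23.1, 22.2 and 19.7 CPM in the sgControl libraries, a log2 fold change of -2.26 ± 0.11 (SE; adjusted p = 1.5e-17).

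The remaining metabolic and surface lists were less uniform. Of 24 glycolysis and hypoxia genes 10 were higher (41.7%, against 32.9% of all genes) and 8 were lower (33.3%, against 32.4%). Their median was 0.04, and NDRG1, a gene induced by hypoxia, was higher by 1.56 ± 0.04 (SE; adjusted p = 1.4e-23). Of 27 adhesion and migration genes 12 were higher (44.4%, against 32.9% of all genes) and 9 were lower (33.3%, against 32.4%). Their median was 0.09. CXCR4, the chemokine receptor that holds cells in the marrow, had 148, 147 and 150.1 CPM in the DKO libraries, against 34.1, 36.3 and 35.4 CPM in the sgControl libraries, a log2 fold change of 2.07 ± 0.05 (SE; adjusted p = 4.9e-24). ITGAL, the alpha chain of the integrin LFA-1, had 266, 268 and 263 CPM in the DKO libraries, against 83.9, 73 and 77.7 CPM in the sgControl libraries, a log2 fold change of 1.76 ± 0.04 (SE; adjusted p = 6.5e-24). Of 20 complement and coagulation genes 13 were higher (65%, against 32.9% of all genes) and 3 were lower (15%, against 32.4%). Their median was 0.82. The median level of the list, 2.63 log2 CPM, lies in a low level class, where all genes off chromosome 10 had a median of 0.38. Against the trend with level and length 12 were higher and 4 were lower. CFP, which encodes properdin, was higher by 2.66 ± 0.20 (SE; adjusted p = 1.2e-12) and C1S by 1.57 ± 0.12 (SE; adjusted p = 8.7e-13).

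Genes of heterochromatin itself mostly differed by small amounts. Of 42 tested members 22 were lower (52.4%, against 32.4% of all genes) and 9 were higher (21.4%, against 32.9%), with a median of -0.14. The median level of the list, 6.71 log2 CPM, lies in the highest level class, where all genes off chromosome 10 had a median of -0.22. Against the trend with level and length 19 were lower and 14 were higher. The HP1 genes CBX1, CBX5 and CBX3 were lower, at -0.64 (adjusted p = 1e-13), -0.43 (adjusted p = 7.4e-12) and -0.14 (adjusted p = 0.0011). TRIM28, the corepressor of KRAB zinc finger proteins, had 278, 264 and 266 CPM in the DKO libraries, against 424, 407 and 401 CPM in the sgControl libraries, a log2 fold change of -0.61 ± 0.04 (SE; adjusted p = 2.4e-14). UHRF1, which brings DNMT1 to newly made DNA, was lower at -0.91 ± 0.04 (SE; adjusted p = 4.3e-18) and DNMT1 at -0.50 ± 0.04 (SE; adjusted p = 3.4e-13). SETDB1, another methyltransferase of histone H3 lysine 9, was higher by 0.17 ± 0.04 (SE; adjusted p = 0.00078). EHMT1, which encodes GLP, had 109, 105 and 104 CPM in the DKO libraries and 114, 107 and 97.6 CPM in the sgControl libraries, which overlapped. The demethylases KDM3A and KDM7A were higher, by 1.27 ± 0.05 (SE; adjusted p = 5.9e-20) and 1.37 ± 0.22 (SE; adjusted p = 2.4e-06).

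Gene classes that H3K9 methylation is known to silence did not share one direction. Of 58 listed germline and cancer-testis genes 21 passed the filter. Of these 10 were higher (47.6%, against 32.9% of all genes) and 4 were lower (19%, against 32.4%), with a median of 0.76. Their median level of 0.81 log2 CPM lies in a low level class, where all genes off chromosome 10 had a median of 0.38. Against the trend with level and length 10 were higher and 3 were lower. STAG3, a cohesin subunit of meiosis, had 5.57, 5.41 and 4.92 CPM in the DKO libraries, against 1.35, 1.4 and 1.12 CPM in the sgControl libraries, a log2 fold change of 2.03 ± 0.18 (SE; adjusted p = 3e-11). TRIM71 was higher by 2.98 ± 0.49 (SE; adjusted p = 4.1e-06) and the PIWI gene PIWIL2 by 2.51 ± 0.68 (SE; adjusted p = 0.0019). Of 35 genes derived from retroviruses and transposons 13 were higher (37.1%) and 11 were lower (31.4%), with a median of -0.05. These shares were near those of all genes off chromosome 10, 32.9% higher and 32.4% lower. ERVK13-1, a transcript of an endogenous retrovirus, had 17.9, 15.9 and 14.5 CPM in the DKO libraries, against 3.03, 3.08 and 3.67 CPM in the sgControl libraries, a log2 fold change of 2.31 ± 0.13 (SE; adjusted p = 7.8e-16). L1TD1, derived from a LINE-1 element, was at 0 reads in all DKO libraries and had 0.41, 0.255 and 0.612 CPM in the sgControl libraries. Reads that map to several places were left out of the counts, so repeat copies themselves were not analysed here.

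Of 16 imprinted genes 8 were higher (50%, against 32.9% of all genes) and 6 were lower (37.5%, against 32.4%). Their median was 0.38. ZDBF2 had 2.41, 2.12 and 1.8 CPM in the DKO libraries, against 0.0357, 0.0365 and 0.204 CPM in the sgControl libraries, a log2 fold change of 4.54 ± 0.50 (SE; adjusted p = 2.8e-09). Of 27 clustered protocadherins 4 were higher (14.8%, against 32.9% of all genes) and 10 were lower (37%, against 32.4%). Their median was -0.15, and against the trend 1 was higher and 14 were lower. PCDHGA12 had 0.401, 0.172 and 0.258 CPM in the DKO libraries, against 8.15, 7.27 and 6.04 CPM in the sgControl libraries, a log2 fold change of -4.65 ± 0.27 (SE; adjusted p = 1.4e-15). The numbered zinc finger genes, most of which encode KRAB repressors of transposable elements, were more often higher. Of 462 tested members 243 were higher (52.6%, against 32.9% of all genes) and 74 were lower, with a median of 0.27. Most changes were small, with 54 members higher and 15 lower by at least 2-fold. ZNF542P had 3.99, 3.75 and 3.97 CPM in the DKO libraries, against 0.107, 0.219 and 0.122 CPM in the sgControl libraries, a log2 fold change of 4.68 ± 0.28 (SE; adjusted p = 3.4e-15). ZNF662 had 0, 0.0573 and 0.103 CPM in the DKO libraries, against 8.36, 9.41 and 11.7 CPM in the sgControl libraries, a log2 fold change of -7.5 ± 0.31 (SE; adjusted p = 9.3e-19). ZNF630 was at 0 in all DKO libraries and had 1.25, 2.3 and 2.08 CPM in the sgControl libraries. Of 25 replication histone genes 11 were higher (44%, against 32.9% of all genes) and 5 were lower, with a median of 0.85. Their median level of -0.15 log2 CPM lies in a low level class, where all genes off chromosome 10 had a median of 0.38. Against the trend 8 were higher and 5 were lower. The mRNAs of these histone genes mostly lack the poly(A) tail that the library kit selects.

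**Figure D5:**
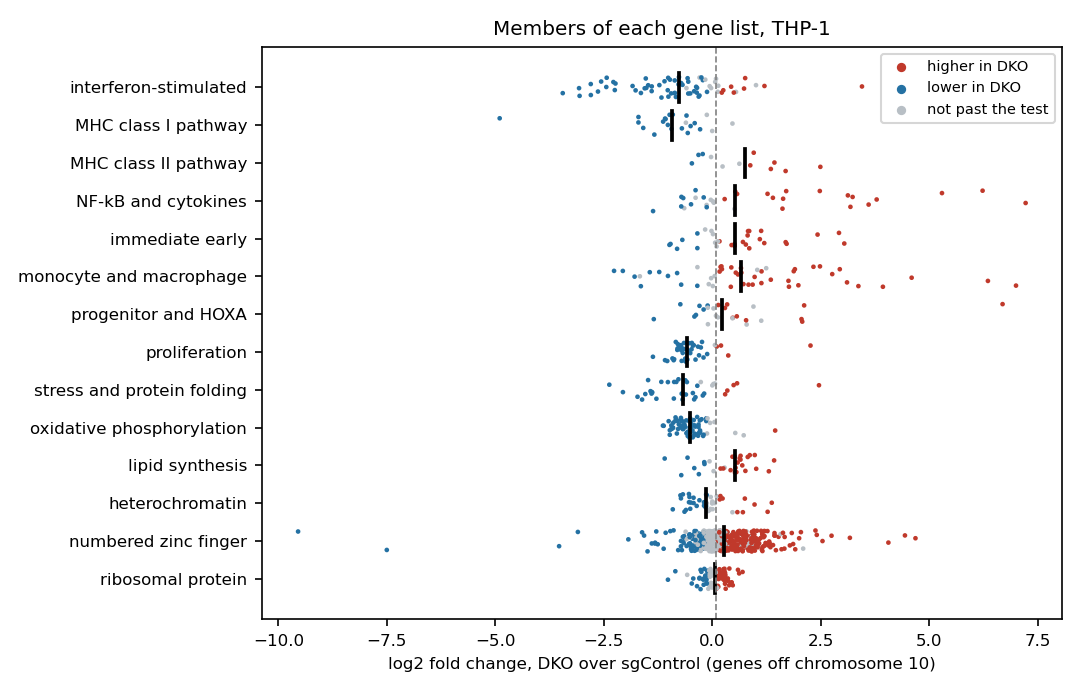
Log2 fold change of DKO over sgControl for each tested member of 14 gene lists, chromosome 10 left out. Points are genes, red where higher and blue where lower at an adjusted p under 0.05 and grey otherwise, black lines are list medians and the dashed line is the median of all tested genes at 0.07. The interferon-stimulated, class I, proliferation, stress and oxidative phosphorylation medians lie left of the dashed line, between -0.93 and -0.52, and the inflammatory, monocyte, lipid synthesis and class II medians lie right of it, between 0.52 and 0.75.

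The largest fold changes off chromosome 10 included a germ cell gene. STK31 (chromosome 7, bases 23710203 to 23832513), a kinase-like gene of male germ cells, had 25760, 21540 and 23965 reads in the DKO libraries, against 0, 6 and 14 reads in the sgControl libraries. Its levels were 608, 617 and 618 CPM in the DKO libraries, against 0, 0.109 and 0.285 CPM in the sgControl libraries, and the SKO libraries had 0, 0 and 0.0687 CPM. The DKO libraries stood far above both, with a log2 fold change of 12.23 ± 0.13 (SE; adjusted p = 5.3e-33) over sgControl.

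CST7 and CTSF were counted in SKO as well as in DKO. CST7, a cystatin of immune cells, was at 0 reads in all sgControl libraries and had 11.8, 11.4 and 13.1 CPM in the DKO libraries, at least 645-fold higher against a floor of 3 reads over the group. The SKO libraries had 3.22, 2.99 and 2.92 CPM. CTSF, a lysosomal protease, was also at 0 in sgControl, had 8.92, 7.04 and 7.22 CPM in DKO, at least 415-fold higher, and 4.33, 4.11 and 4.09 CPM in SKO. SLC12A7, a potassium chloride cotransporter, had 39.6, 40.8 and 39.1 CPM in the DKO libraries, against 0.0713, 0.146 and 0.102 CPM in the sgControl libraries, a log2 fold change of 8.52 ± 0.15 (SE; adjusted p = 8.9e-28). POU4F2, a neuronal homeobox gene, had 9.84, 9.56 and 8.14 CPM in the DKO libraries, against 0, 0.0365 and 0.163 CPM in the sgControl libraries, and the SKO libraries had 20.4, 22.9 and 21.2 CPM. SULT1B1, a sulfotransferase, had 6.68, 6.13 and 8.43 CPM in the DKO libraries, against 0.0713, 0.0365 and 0 CPM in the sgControl libraries. The non-coding RNA LINC01412 differed by 6.78 ± 0.20 (SE; adjusted p = 2.1e-22) and the pseudogene HSPA7, which lies beside FCGR2B and FCGR2C and resembles HSPA6, by 7.47 ± 0.45 (SE; adjusted p = 3.9e-15).

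In all, 7 genes had at most 3 reads over the sgControl libraries and at least 1 CPM in every DKO library, among them HDC, which makes histamine, with 1.37, 1.75 and 2.17 CPM in the DKO libraries, and the calcium channel TRPV6 with 1.39, 1.03 and 1.5 CPM. In the opposite direction 3 genes had at most 3 reads over the DKO libraries and at least 1 CPM in every sgControl library, ZNF630 and RP11-67H24.2 and, on chromosome 10, ELOVL3.

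The genes with the lowest fold changes in DKO included some that were also low in SKO and some that were not. ADAMTS9, a secreted metalloprotease, had 0.0944, 0 and 0.0515 CPM in the DKO libraries, against 36.9, 34.4 and 39.8 CPM in the sgControl libraries, and the SKO libraries had 0, 0.0336 and 0 CPM. PRDM6, of the PRDM family, had 1.23, 0.63 and 1.42 CPM in the DKO libraries, against 64.8, 68.7 and 70.3 CPM in the sgControl libraries, and the SKO libraries had 0.906, 1.41 and 1.17 CPM. TRO, a MAGE family gene, had 0.141, 0.0573 and 0.206 CPM in the DKO libraries, against 7.03, 10.2 and 8.36 CPM in the sgControl libraries, and the SKO libraries had 0.222, 0.0673 and 0.0687 CPM. For these the SKO libraries lay far below sgControl. POGLUT2, a protein glucosyltransferase, had 0.613, 0.458 and 0.515 CPM in the DKO libraries, against 19.5, 20.0 and 19.1 CPM in the sgControl libraries, and 1.15, 1.48 and 1.51 CPM in the SKO libraries. GNLY, which encodes granulysin, had 0.377, 0.344 and 0.387 CPM in the DKO libraries, against 14.7, 13.4 and 11.9 CPM in the sgControl libraries, and 1.96, 2.14 and 1.77 CPM in the SKO libraries. KCND2, a potassium channel gene, had 0.33, 0.172 and 0.67 CPM in the DKO libraries, against 13.8, 14.1 and 14.8 CPM in the sgControl libraries, and 1.63, 1.25 and 1.72 CPM in the SKO libraries. For POGLUT2, GNLY and KCND2 SKO lay between the other groups, nearer to DKO. MAGED1, another MAGE family gene, had 0.283, 0.286 and 0.67 CPM in the DKO libraries, against 33.4, 32.5 and 32.5 CPM in the sgControl libraries, whereas the SKO libraries had 22.4, 23.7 and 26 CPM. ZNF662 was likewise high in SKO, with 6.05, 8.12 and 8.09 CPM. RP11-421N8.1 had 0.0944, 0 and 0.103 CPM in the DKO libraries, against 3.03, 2.73 and 2.94 CPM in the sgControl libraries, and the SKO libraries, with 3.29, 2.69 and 2.99 CPM, overlapped the sgControl libraries.

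Most markers of the line were present. An exception was MEIS1, set beforehand as a marker of the line, which had under 1 CPM in every DKO and sgControl library. CD33 had 83.9, 86.1 and 86.8 CPM in the DKO libraries, against 61.6, 65.2 and 64.4 CPM in the sgControl libraries, and SPI1 had 186, 181 and 173 CPM in the DKO libraries, against 241, 223 and 225 CPM in the sgControl libraries. CSF3R, the G-CSF receptor, was higher in DKO by 0.70 ± 0.04 (SE; adjusted p = 1.9e-15), FCGR1A by 0.19 ± 0.05 (SE; adjusted p = 0.00082) and MPO by 0.80 ± 0.13 (SE; adjusted p = 2.1e-06). Markers of other cell types were mostly near 0 in both groups. Of 23 lymphoid markers 18 were under 1 CPM on average in DKO and 15 in sgControl, and their summed level was 28.3 to 32.1 CPM in the DKO libraries and 40.3 to 47.2 CPM in the sgControl libraries. Of the 11 tested, 2 were higher and 3 were lower, with a median of -0.39, against the trend 1 was higher and 6 were lower, and MS4A1, TRBC1 and KLRD1 were at 0 reads in all 6 libraries. PAX5, a B cell factor, was lower at -3.41 ± 0.18 (SE; adjusted p = 1.4e-16). NKG7, another member, was higher by 2.48 ± 0.12 (SE; adjusted p = 1.6e-17), with a mean of 16.5 CPM in DKO and 2.96 CPM in sgControl.

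Of 20 erythroid and megakaryocytic markers 13 were under 1 CPM in DKO and 18 in sgControl, and HBA1, HBG1, HBG2, GYPB and PF4 were among those at 0 in all 6 libraries. The summed level was 257 to 263 CPM in the DKO libraries and 368 to 378 CPM in the sgControl libraries, mostly TFRC, the transferrin receptor of dividing cells, with 237, 237 and 239 CPM in the DKO libraries, against 367, 359 and 368 CPM in the sgControl libraries. Of the 8 tested, 7 were higher (87.5%, against 32.9% of all genes) and 1 was lower, with a median of 1.70. Their median level of 0.12 log2 CPM lies in a low level class, where all genes off chromosome 10 had a median of 0.38. Against the trend with level and length 5 were higher and 1 was lower. GP9 was higher by 2.87 ± 0.24 (SE; adjusted p = 7.1e-12). Of 16 stromal and epithelial markers 15 were under 1 CPM in DKO and 13 in sgControl, with summed levels of 5.10 to 6.01 CPM and 5.51 to 5.97 CPM, and of the 5 tested 1 was higher and 1 was lower, with a median of 0.07, and against the trend 1 was higher and 2 were lower. Of 15 dendritic markers 12 were under 1 CPM in each group, and the sum of 149 to 152 CPM in DKO and 47.6 to 49.1 CPM in sgControl was mostly FLT3. Of the 6 tested, 2 were higher and 1 was lower, with a median of -0.41, and against the trend 2 were higher and 3 were lower. Of 10 mast cell and granulocyte markers 8 were under 1 CPM in DKO and 9 in sgControl, summed levels were 22.8 to 24.2 CPM and 21.5 to 23.6 CPM, and 2 of 5 tested were higher and none was lower, with a median of 0.69.

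DKO and SKO libraries were also compared with each other. Off chromosome 10, 4557 genes were higher in DKO than in SKO (25.4%) and 5099 were lower (28.4%), with a median of 0.05. Of the 69 interferon-stimulated genes 46 were higher in DKO than in SKO and 11 were lower, with a median of 0.40. OAS2 had 7.7, 8.92 and 7.49 CPM in the SKO libraries, below the DKO and the sgControl libraries, and DKO exceeded SKO by 1.49 ± 0.08 (SE; adjusted p = 3.9e-16). MX1 had 2.48, 2.39 and 3.3 CPM in SKO and differed by 1.97 ± 0.11 (SE; adjusted p = 1.5e-15), and IFI6 had 11.5, 10.8 and 11.8 CPM in SKO and differed by 0.98 ± 0.07 (SE; adjusted p = 1.3e-12). ISG15 had 4.66, 5.08 and 5.19 CPM in SKO, a difference of -0.01 ± 0.11 (SE; adjusted p = 0.94). Against sgControl, 57 of the 69 genes were lower in SKO, where 21% of all genes off chromosome 10 were called lower, with a list median of -1.09. In DKO 50 were lower with -0.77, where 32.4% of all genes were called lower, and both comparisons share the same sgControl libraries. The number in the headers also separates DKO from SKO and cannot be told apart from the genotype there either.

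Class I genes were lower in DKO than in SKO too, with 16 of 22 lower, 1 higher and a median of -0.44, and for class II genes 10 of 12 were higher and none was lower, with a median of 0.44. Of the monocyte and macrophage markers 30 of 50 were higher and 7 were lower than in SKO, with a median of 0.38. S100A9 exceeded SKO by 1.43 ± 0.05 (SE; adjusted p = 7.3e-19) and LYZ by 0.93 ± 0.04 (SE; adjusted p = 3.4e-18), and for both the SKO libraries lay between DKO and sgControl, with 41.8, 37.6 and 41.6 CPM and 265, 250.5 and 263 CPM. Of the proliferation genes 36 of 42 were lower in DKO than in SKO, with a median of -0.59, and of the oxidative phosphorylation genes 58 of 73, with a median of -0.38. EGR1 had 14.5, 13.2 and 13.8 CPM in SKO, below both other groups, and DKO exceeded SKO by 3.92 ± 0.06 (SE; adjusted p = 1.9e-28).

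The DKO effect on interferon-stimulated genes was then compared between the 2 lines, as the effect in THP-1 minus the effect in U937, in 1 fit over 18 untreated libraries. Among all 18035 genes off chromosome 10 in that fit, 4574 had a higher effect in THP-1 (25.4%) and 5163 a lower one (28.6%). Of the 69 list members 47 had a lower effect in THP-1 and 8 a higher one, with a median difference of -1.49. In U937 itself 41 of the 69 were higher in DKO and 13 were lower, with a median of 0.56, where 27% of all genes off chromosome 10 were called higher and 27.9% lower. OAS2 differed by 4.27 ± 0.13 (SE) in U937, and its effect in THP-1 minus that in U937 was -6.76 ± 0.15 (SE; adjusted p = 2.6e-29). For IFI6 the U937 effect was 2.82 ± 0.09 (SE) and the difference -5.66 ± 0.13 (SE; adjusted p = 1e-28), and for ISG15 they were 1.97 ± 0.10 (SE) and -5.07 ± 0.14 (SE; adjusted p = 4.6e-26). GBP2 went the other way, with -0.25 ± 0.27 (SE) in U937 and a difference of 3.66 ± 0.35 (SE; adjusted p = 3.8e-11). The lines also differed in the SUV39H2 guide, which the headers name sgSUV39H2-3 for U937 DKO and sgSUV39H2-1 for THP-1 DKO, with sgSUV39H1-3 in both. The U937 DKO headers name clone 3 and hold none of the numbers found in other headers, and the U937 sgControl headers hold such a number and no clone. These differences cannot be told apart from the line or from the DKO label.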

How the data were processed

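Per the labels' protocols, poly(A)-selected RNA was sequenced from directional libraries. The submitters' processing notes name fastp 0.23.4, STAR 2.7.11b, Subread 2.0.6 and hg38. Per the file headers, the authors counted reads per gene name with featureCounts 2.0.6 on GENCODE 38, each read of a pair singly, without strand and without reads that mapped to several places or overlapped several genes. The deposited counts were used unchanged, so antisense partners, overlapping genes and near-identical copies are uncertain. All 59428 features held a gene name or ID. The 9 untreated THP-1 libraries were fitted together in edgeR 4.0.16 (R 4.3.3, limma 3.58.1) by the quasi-likelihood test, with filterByExpr, TMM factors and 6 residual degrees of freedom. P-values were adjusted by the Benjamini-Hochberg method over all tested genes, and 0.05 was the threshold. CPM values are TMM-scaled. Standard errors were taken as the fold change over the square root of F. The line comparison was fitted on all 18 untreated libraries. Depth was 31985767 to 60222776 counted reads per library. The fit was tested on simulated data. No library pair agreed within sampling noise. Replicate numbers did not pair the libraries. Alternatives were DESeq2 1.42.0, its size factors, TMM factors from genes off chromosome 10, no filter, 6 or 18 libraries, a replicate block, leaving out each library, the chromosome 10 median as zero and, chosen after seeing the data, a smooth trend with level and exon length as zero.

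The libraries compared and all 36 gene lists were chosen with earlier results of these data known. Genes were named by rule as the targeted pair, up to 4 members per list with the largest fold changes past the test, the 10 highest and 10 lowest off chromosome 10 and 6 each on it, and genes with at most 3 reads in one group and 1 CPM in every library of the other. The text names part of them, and some genes are not reported here. The following were chosen after their values were seen: ATF4, B2M, BNIP3, BST2, CALR, CBX1, CBX3, CBX5, CCL3, CCL4, CCNB1, CD14, CD33, CD36, CD4, CD74, CDK1, CEBPA, CSF1R, CSF3R, CXCL10, CXCL8, DDIT3, DNMT1, DUSP1, EGR1, EHMT1, EIF2AK2, FCGR1A, FCGR2A, FDFT1, GFI1, HELZ2, HLA-B, HLA-C, HLA-DRB1, HLA-E, HOXA9, HSP90B1, HSPA5, IFI6, IFIH1, IFIT1, IFIT2, IFIT3, IFIT5, IFITM3, IRF8, IRF9, ITGAL, JUN, KIF11, LYZ, MCM10, MCM3, MKI67, MPO, MX1, MX2, NFKB1, NFKBIA, NLRC5, OAS1, OAS2, OAS3, PCNA, PDIA4, RELA, SETDB1, SIGLEC1, SPI1, STAT2, TFRC, TLR4, TNFAIP3, TRIB3, TRIM28, VIM, VSIR, XAF1 and XBP1. Also chosen after their values were seen were EGR2, FAS, HBA1, IDI1, INPP5F, MEIS1, MS4A1, NDUFB8, NFKB2, PLAU, RPS24 and SCD. Promoter windows came from RefSeq (GRCh38.p14).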

Additional observations from a re-analysis of the deposited data

Results flagged for a closer look

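The DKO effect on interferon-stimulated genes differed between THP-1 and U937 in the interaction test of edgeR's quasi-likelihood fit. It was lower in THP-1 for 47 of 69 genes and higher for 8. The difference on the log2 scale, THP-1 minus U937, was -6.76 for OAS2, -5.66 for IFI6, -5.07 for ISG15 and 3.66 for GBP2. In the DKO libraries of THP-1 chromosome 10 was low and in those of U937 it was not, and the part of that difference in these effects was not tested.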

How the results depend on the processing

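With DESeq2's Wald test, DESeq2's size factors, TMM factors from genes off chromosome 10, no filter on low counts or all 18 untreated libraries, the main counts stayed within 1.5 times their values and the targeted genes kept their direction and call. Leaving aside the setting with no filter, these settings moved the median of all genes by -0.041 to 0.015 on the log2 scale. The fit of only the 6 DKO and sgControl libraries moved it by 0.021. MHC class I genes called higher numbered 1 with only the 6 DKO and sgControl libraries, 1 with a replicate block and 1 against the trend with level and length, and 0 to 1 when each library was left out (1 without sgControl replicate 3). The replicate block, where same-numbered libraries correlated at 0.131, 0.039 and 0.033 and so shared only a number, gave 5835 genes higher and 5841 lower off chromosome 10 and 41 higher and 437 lower on it. Against the trend, oxidative phosphorylation genes called higher numbered 4. Against the chromosome 10 median, 183 of its genes were higher and 237 lower. By construction of that median, genes below 0 but above it reversed: EGR2 at 0.23, FAS at 0.79, IDI1 at 0.77, INPP5F at 0.71, NDUFB8 at 0.34, NFKB2 at 0.51, PLAU at 0.52, RPS24 at 0.38, SCD at 0.51 and VSIR at 0.60. IDI1 was 0.04 against the trend, and the cause was not tested. Leaving out each library gave 5229 to 5670 genes higher and 5606 to 5811 lower off chromosome 10, 39 to 49 and 429 to 434 on it, and 46 to 50 interferon-stimulated genes lower. Proliferation genes called higher ranged from 2 to 4 (2 without DKO replicate 2). The THP-1 minus U937 effect was higher for 5 to 11 interferon-stimulated genes (5 without THP-1 DKO replicate 3 or U937 sgControl replicate 1) and lower for 44 to 49. Of 2913 values of 205 genes under these alternatives, 2848 kept direction and call, 45 lost the call, 9 gained it and 11 reversed. Genes with few reads carry wide errors, the DKO libraries were shallower, and 3 libraries a group leave differences between clones and knockouts confounded.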
